A study of Mus musculus with 20 samples.

Results

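The aquaporins and the vasopressin V2 receptor of the mouse utricle are described here: the 8 aquaporin genes *Aqp1*, *Aqp2*, *Aqp3*, *Aqp4*, *Aqp5*, *Aqp7*, *Aqp9* and *Aqp11*, and the receptor gene *Avpr2*. These 9 genes were taken by name from the 25655 genes of the deposited tables. The utricle is a vestibular organ that carries otoconia, and the study asked how loss of estrogen and its replacement act on it. All libraries came from female C57BL/6J mice, operated on when they were 8 weeks old, with the utricle collected 4 weeks later. The sham + v group had a sham operation and a vehicle pellet, and the OVX + v group had its ovaries removed and a vehicle pellet. The OVX + E2 group had its ovaries removed and an estradiol pellet (50 µg, released over 60 days), and the OVX + RAL group had its ovaries removed and a raloxifene pellet (2.4 mg, released over 60 days). Each group had 5 libraries, numbered 1 to 5 for sham + v, 6 to 10 for OVX + v, 11 to 15 for OVX + E2 and 16 to 20 for OVX + RAL. The labels do not say whether each library came from a separate animal, so p-values measure the spread between these libraries, which may be technical.

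Aquaporins are membrane channels for water, and the aquaglyceroporins among them also pass glycerol. In the kidney, vasopressin binds the V2 receptor, cAMP rises in the collecting duct cell, and vesicles carrying aquaporin 2 fuse with the apical membrane. In the inner ear, several of these channels are known from the fibrocytes, supporting cells and lining epithelia around the potassium-rich endolymph, and a vasopressin route to aquaporin 2 has long been discussed for the control of endolymph volume.

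Only *Aqp1* and *Aqp11* were measured throughout the utricle libraries. *Aqp1* had counts in 19 of 20 libraries and *Aqp11* in 18, whereas *Aqp4* had counts in 10, *Aqp7* in 9, *Aqp5* in 8, *Aqp2* in 2 and *Aqp3* in 1. *Aqp9* and *Avpr2* had no count in any library. Levels are given as CPM, the counts of a gene scaled to the total count of its library. The kit reads the 3′ ends of mRNA, so a transcript gives reads at its end whatever its length, and no division by length was made. On this scale the mean over the 20 libraries was 97.3 CPM for *Aqp1*, 36.6 for *Aqp11*, 6.83 for *Aqp4*, 3.59 for *Aqp7*, 3.46 for *Aqp5*, 2.77 for *Aqp2* and 0.592 for *Aqp3*. In bulk tissue, fewer cells of a type and less RNA per cell cannot be told apart. No difference between groups passed an adjusted p of 0.05 for any of the 9 genes.

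The libraries held between 1123053 and 2081747 counts, and the OVX + E2 group was the shallowest (1123053 to 1507667). Libraries were made from 1 ng of total RNA. A gene with 3 counts, the floor used here, had 1.44 CPM in the deepest library and 2.67 CPM in the shallowest. Summed markers of utricle cell types were counted in every library. The summed level of 8 hair cell genes was 391 to 1151 CPM per library, and that of 8 supporting cell genes 2837 to 5579 CPM. The 6 fibrocyte and connective tissue genes summed to 6593 to 14673 CPM, and the 6 vestibular dark cell genes to 1136 to 3487 CPM. The most abundant genes of these lists, in the same order, were *Pou4f3* (276 CPM over all libraries), *Otog* (2508), *Coch* (5807) and *Atp1b2* (1373). Other listed genes were sparse, such as *Cdh23*, *Hey2* and *Bsnd*, with counts in 7, 6 and 11 libraries. Reads carried no molecular identifiers, so floors and limits set from counts cover counting error only.

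**Figure D1:**
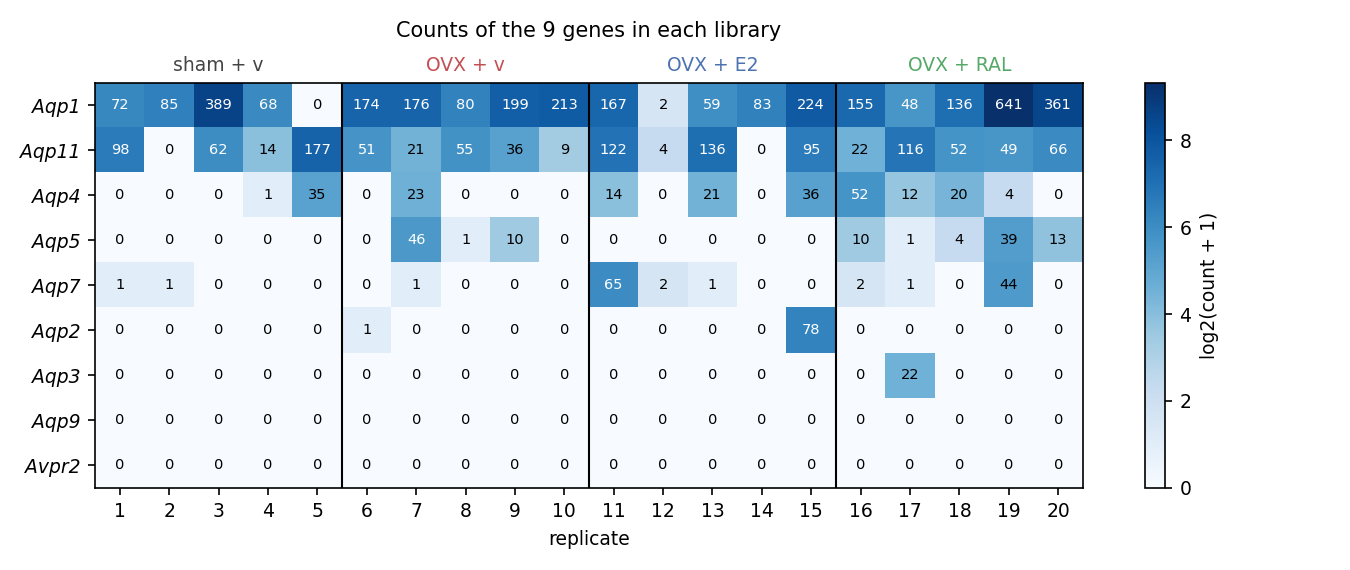
Counts of the 9 genes (rows) in each of the 20 libraries (columns, grouped by treatment), with the colour giving log2(count + 1) and the count written in each cell. *Aqp1* and *Aqp11* fill nearly every column, *Aqp5* has counts only in OVX + v and OVX + RAL columns, and *Aqp9* and *Avpr2* are at 0 throughout.

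The gene starts of the members were searched for estrogen response elements and for the cAMP response element, since the groups differ in estrogen action and the V2 receptor acts through cAMP. RefSeq windows of 300 bases (250 before and 50 after a transcript start, build GRCm38.p6) matched 8 of the 9 genes, *Aqp4* being the exception, with 10 windows in all. The full estrogen response element, GGTCA and TGACC with any 3 bases between them, searched on both strands, was in 23 of all 32851 windows (0.07%) and in 0 of the members' windows. The cAMP response element TGACGTCA was in 588 windows (1.79%) and in 0 of the members' windows. The single arm of the estrogen element with 1 more base, AGGTCA, which can overlap a full element and reads TGACCT on the other strand, was in 5340 windows (16.3%). Among the members it was found for *Aqp11* and *Aqp7*, and these matches are shown because they are the only ones, each on the gene's own strand with the match in capitals.
*Aqp11*, chr7:97738472-97738477, minus strand, 230 bases before the transcript start: tgcaaagaTGACCTctggggct
*Aqp7*, chr4:41048180-41048185, minus strand, 223 bases before the start of one transcript and 49 before that of another: tccacctcTGACCTcacaaggg
*Aqp7*, chr4:41048058-41048063, minus strand, 101 bases before the start of a transcript: tgccctacTGACCTctcccctg
These are letter matches in the windows and no measurement of binding. *Aqp1*, the most abundant member, and *Aqp5*, whose counts lay in 2 of the 4 groups, had no match to any of the 3 motifs in their windows.

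Over the comparisons, the members passed the filter of 10 counts in part, and 0 were called. For sham + v against OVX + v, 4 of 9 members were tested and 0 called, beside 0.0145% of 13825 genes, and 1 (*Aqp5*) had an unadjusted p under 0.05, beside 12.5%. For OVX + E2 against OVX + v, 6 were tested and 0 called, beside 0.0584% of 13695 genes, and 1 (*Aqp5*) was under the unadjusted threshold, beside 13.9%. For OVX + RAL against OVX + v, 6 were tested and 0 called, beside 0.0286% of 14002 genes, and 1 (*Aqp3*) was under it, beside 12.1%. In these 3 comparisons 0 members had groups that did not overlap, beside 0.499%, 0.832% and 0.578% of all genes. For OVX + E2 against OVX + RAL, 7 were tested and 0 called, beside 0.0727%, and 3 (*Aqp2*, *Aqp3* and *Aqp5*) were under the unadjusted threshold, beside 14.1%. *Aqp2* and *Aqp3* passed the filter only through a group in which they were high, as did *Aqp7* in its comparisons with OVX + v and *Aqp5* in each comparison with a group at 0, so the unadjusted p-values of these genes are no support for a difference. DESeq2, which gives no adjusted p to some sparse genes, gave one to 3, 4, 4 and 4 of the members tested in the 4 comparisons and called 0.

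A test of any difference among the 4 groups, which needs no reference group, called 0 of the 7 members tested, beside 0.141% of 14870 genes. The adjusted p by edgeR was 0.138 for *Aqp3*, 0.144 for *Aqp2*, 0.247 for *Aqp5* and 0.696 for *Aqp7*, and 0.999922 for *Aqp1*, *Aqp4* and *Aqp11*. The first 3 of these had an unadjusted p under 0.05, beside 16.3% of all genes. *Aqp3* had counts in 1 library and *Aqp2* 98.7% of its counts in 1, while *Aqp5* had counts in OVX + v and OVX + RAL alone. They passed the filter through these libraries, so their unadjusted p-values are no support for a difference.

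**Figure D2:**
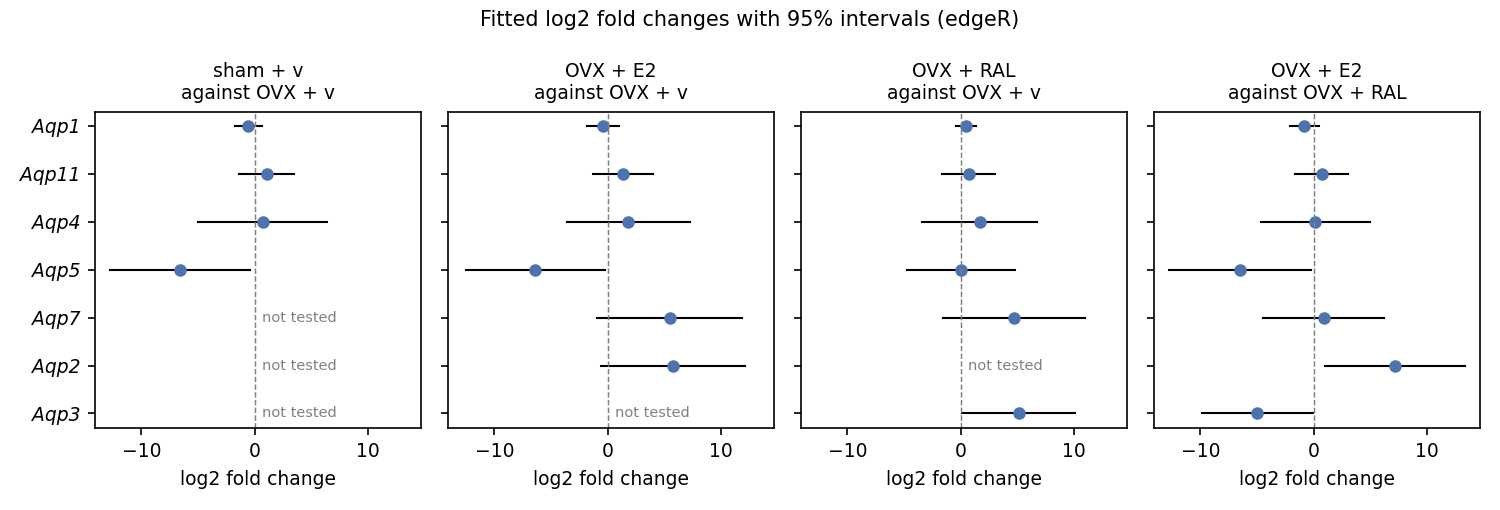
Fitted log2 fold changes (points) with 95% intervals (lines) from edgeR for the members tested in each of the 4 comparisons (panels). The intervals of *Aqp1* are the narrowest and include 0 in each panel, and those of genes with a group at 0 or at 1 count span many log2 units and depend on the prior count of the fit.

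*Aqp1* (ENSMUSG00000004655, chromosome 6, 55313417 to 55325540 on GRCm39, plus strand) encodes the water channel of endothelium and red blood cells, also known from connective tissue cells of the inner ear. In the sham + v group it was at 35.1, 44.6, 231, 38.0 and 0 CPM in libraries 1 to 5. In the OVX + v group it was at 108, 110, 45.3, 98.6 and 148 CPM in libraries 6 to 10. In the OVX + E2 group it was at 111, 1.51, 47.3, 73.9 and 157 CPM in libraries 11 to 15, and in the OVX + RAL group at 79.7, 25.9, 79.9, 336 and 173 CPM in libraries 16 to 20. The 4 groups overlapped, and the values spread most widely in sham + v and OVX + RAL. Library 3 stood above the rest of the sham + v group and library 19 above the rest of the OVX + RAL group, while library 5 had 0 counts and library 12 only 2.

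The mean level of *Aqp1* was highest with raloxifene (139 ± 122 CPM, SD, n = 5), followed by OVX + v (102 ± 37.0), OVX + E2 (78.1 ± 59.5) and sham + v (69.6 ± 91.6). The neighbours in this order did not differ beyond their spread where they were tested, and OVX + E2 was not compared with sham + v. By the quasi-likelihood test of edgeR, the log2 fold change was 0.44 (SE 0.450, 95% interval -0.44 to 1.33) for OVX + RAL against OVX + v. It was -0.39 (SE 0.717, -1.79 to 1.02) for OVX + E2 against OVX + v, and -0.55 (SE 0.602, -1.73 to 0.63) for sham + v against OVX + v. Between the pellets, OVX + E2 against OVX + RAL, it was -0.83 (SE 0.642, -2.09 to 0.43), with an adjusted p of 0.841 by edgeR. These values moved with single libraries. That for OVX + RAL was -0.19 without library 19, and that for sham + v was -1.79 without library 3 and -0.23 without library 5. That for OVX + E2 was -0.07 without library 12 and -0.81 without library 15, and that between the pellets was -0.20 without library 19 and -1.25 without library 15. On mean log2(CPM + 1), which weighs libraries 5 and 12 more, the difference from OVX + v was -1.83 for sham + v, -1.14 for OVX + E2 and 0.06 for OVX + RAL, and it was -1.20 between the pellets. The exact permutation test on this scale, two-sided, gave p = 0.143 for sham + v against OVX + v and p of 0.421 to 0.968 for the other 3 comparisons.

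Markers of the cell types known to carry *Aqp1* varied between libraries too. The summed level of 6 endothelial markers was 337 CPM in library 5, 385 CPM in library 3, 108 CPM in library 12 and 503 CPM in library 19. Over the groups this list ranged from 110 to 430 CPM in sham + v, 184 to 291 in OVX + v, 108 to 504 in OVX + E2 and 128 to 503 in OVX + RAL, with a group mean of 310 CPM in sham + v, 240 in OVX + v, 334 in OVX + E2 and 308 in OVX + RAL. The 5 red blood cell genes summed to 571 to 1747 CPM in sham + v (mean 1171), 830 to 2459 in OVX + v (mean 1458), 363 to 3837 in OVX + E2 (mean 1282) and 825 to 2909 in OVX + RAL (mean 1551). The order of these means, which is that of the *Aqp1* means, rested on library 15: without it the OVX + E2 mean was 644 CPM, below sham + v, and the OVX + E2 median of 685 CPM was also the lowest of the 4. Libraries 3 and 19, where *Aqp1* was highest, had 571 and 1442 CPM of this list. The 6 fibrocyte and connective tissue genes had group means of 9989 CPM in OVX + v and 9927 in OVX + RAL, above the 8817 in OVX + E2 and the 8249 in sham + v, with overlapping ranges. None of the genes of the 3 lists was at 0 in all libraries, and the part of these cells in the *Aqp1* values was not tested. The genes whose log2(CPM + 1) followed *Aqp1* most closely over the 20 libraries, among 9532 genes with a mean of at least 10 CPM, were *Ibtk* (Pearson r 0.87, Spearman rho 0.54), *Pigp* (0.83 and 0.40) and *Myo5c* (0.82 and 0.37). The rank correlations are lower than the Pearson values, and libraries share depth as well as genes, so these are descriptions only.

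*Aqp11* (ENSMUSG00000042797, chromosome 7, 97373213 to 97387496 on GRCm39, minus strand) encodes an intracellular aquaporin of the endoplasmic reticulum. It was at 47.7, 0, 36.7, 7.83 and 117 CPM in libraries 1 to 5 of the sham + v group. The OVX + v libraries 6 to 10 had 31.8, 13.2, 31.2, 17.8 and 6.27 CPM. The OVX + E2 libraries 11 to 15 had 80.9, 3.02, 109, 0 and 66.6 CPM, and the OVX + RAL libraries 16 to 20 had 11.3, 62.5, 30.5, 25.7 and 31.7 CPM. The values of 0 and those over 100 CPM all lay in sham + v and OVX + E2, and the 4 groups overlapped. The OVX + v and OVX + RAL groups were the narrower ones, with counts in each of their 10 libraries.

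The mean level of *Aqp11* was 51.9 ± 48.5 CPM (SD, n = 5) with estradiol, 41.9 ± 46.6 in sham + v, 32.4 ± 18.7 in OVX + RAL and 20.04 ± 11.2 in OVX + v. Against OVX + v, the log2 fold change by edgeR was 1.06 (SE 1.24, 95% interval -1.38 to 3.498) for sham + v, 1.37 (SE 1.36, -1.30 to 4.03) for OVX + E2 and 0.69 (SE 1.19, -1.66 to 3.03) for OVX + RAL. For OVX + E2 against OVX + RAL it was 0.68 (SE 1.19, -1.65 to 3.01). None of these passed the adjusted threshold. Single libraries moved these values too: that for sham + v was 0.20 without library 5, that for OVX + E2 was 0.91 without library 13, and that for OVX + RAL was 0.31 without library 17. Between the pellets it was 0.22 without library 13 and 1.06 without library 17. On mean log2(CPM + 1), which weighs the libraries at 0 more, the differences in the same order were -0.02, 0.05, 0.68 and -0.63, so that the sign for sham + v and for the pellet comparison turned with the scale. The exact permutation p-values, two-sided, were 0.984, 0.968, 0.278 and 0.667. The genes with the most similar profile over the 20 libraries were *Fez1* (Pearson r 0.82, Spearman rho 0.64), *Zfp866* (0.81 and 0.81) and *Bcas3* (0.81 and 0.67).

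**Figure D3:**
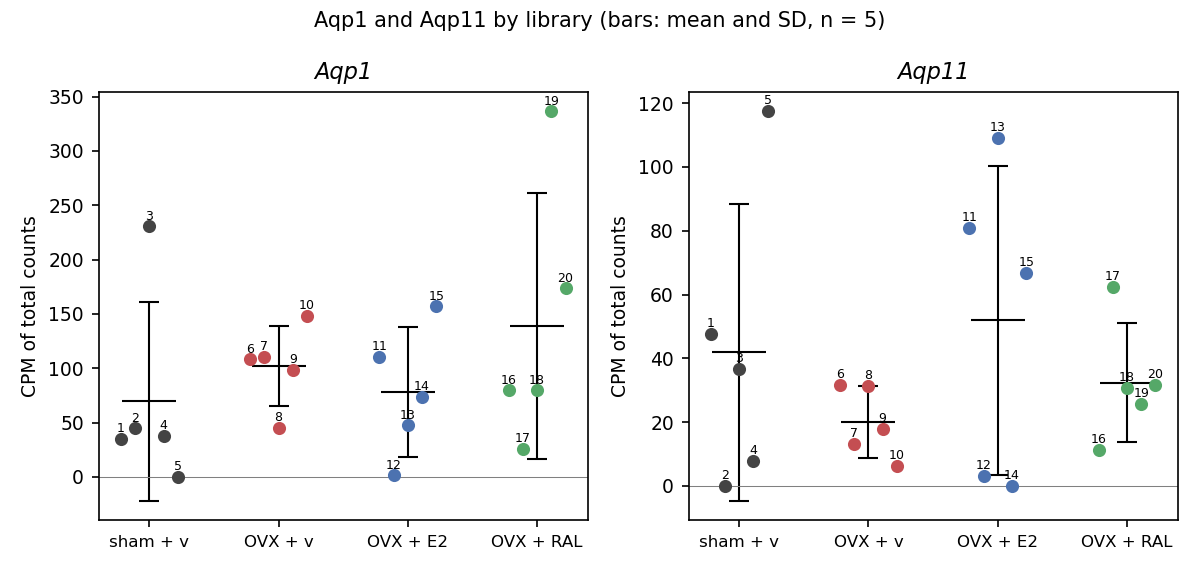
CPM of *Aqp1* (left) and *Aqp11* (right) in each library (numbered points) by group, with the mean (long bar) and SD (error bar, n = 5). The groups overlap for both genes, with *Aqp1* highest in library 19 at 336 CPM and *Aqp11* highest in library 5 at 117 CPM.

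*Aqp5* had counts in 2 of the 4 groups only, OVX + v and OVX + RAL, although no comparison of it passed the adjusted threshold. *Aqp5* (ENSMUSG00000044217, chromosome 15, 99488663 to 99492710 on GRCm39, plus strand) encodes the apical water channel of salivary, lacrimal and airway glands, which is also known from epithelial cells of the inner ear. It had 0 counts in all 5 libraries of the sham + v group and 0 counts in all 5 libraries of the OVX + E2 group. In the OVX + v group it had 46 counts (28.9 CPM) in library 7, 1 count in library 8, 10 counts (4.95 CPM) in library 9 and 0 in libraries 6 and 10. In the OVX + RAL group it had 10, 1, 4, 39 and 13 counts in libraries 16 to 20, that is 5.14, 0.539, 2.35, 20.5 and 6.24 CPM. The OVX + E2 and OVX + RAL groups did not overlap in the counts as they stand, which rests on the 1 count in library 17. With the OVX + E2 libraries taken at 3 counts (1.99 to 2.67 CPM), they overlapped libraries 17 and 18. The sham + v and OVX + v groups overlapped at 0.

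The mean level of *Aqp5* was 6.88 ± 12.5 CPM (SD, n = 5) for OVX + v and 6.95 ± 7.88 CPM for OVX + RAL. Taking the groups at 0 at 3 counts per library, *Aqp5* was at least 4.05-fold higher in OVX + v than in sham + v. It was at least 3.01-fold higher in OVX + v than in OVX + E2, and at least 3.04-fold higher in OVX + RAL than in OVX + E2. Without library 7 the mean of OVX + v was 1.38 CPM, under the mean level of 3 counts in sham + v (1.70 CPM) and OVX + E2 (2.29 CPM), so that no bound was left. Without library 19 the mean of OVX + RAL was 3.57 CPM, and the bound against OVX + E2 fell to at least 1.56-fold. By edgeR the adjusted p was 0.363 for sham + v against OVX + v (unadjusted p 0.0365), 0.351 for OVX + E2 against OVX + v (0.0404) and 0.353 for OVX + E2 against OVX + RAL (0.0415). In each of these comparisons *Aqp5* passed the filter through the group with counts alone, so the unadjusted values are given as a description. Over the alternatives tried, the adjusted p of the last comparison ranged from 0.327 to 0.708. For OVX + RAL against OVX + v the log2 fold change was 0.02 (SE 2.42, 95% interval -4.74 to 4.78), an interval too wide to say that these groups were alike. The 3 comparisons with OVX + v share its 5 libraries, so a low or high value there enters each of them.

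The exact permutation test on log2(CPM + 1), two-sided, gave p = 0.00794 for *Aqp5* in OVX + E2 against OVX + RAL, the smallest p that 5 against 5 libraries allow. It was 1 of 26 such tests over the members, and the only one under 0.05. As *Aqp5* entered this comparison through its 67 counts in OVX + RAL alone, this p and the lack of overlap are a description and no support for a difference. For sham + v against OVX + v and for OVX + E2 against OVX + v the exact test gave p = 0.167. Groups that do not overlap were found for 0.909% of the 13753 genes tested between OVX + E2 and OVX + RAL, and with OVX + E2 lower for 0.669%. *Aqp5* was 1 of 7 members tested there, and 0 of the other 6 had groups that did not overlap.

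The zeros of *Aqp5* were also set against those of all genes. A gene with counts in 8 of the 10 OVX + v and OVX + RAL libraries and in 0 of the 10 others was found once among 14870 genes with at least 10 counts, and this was *Aqp5*, from whose counts the criterion was taken. *Aqp5* was thus certain to meet it, and its rarity is no support for a difference. The 14870 genes include 5200 with at least 1000 and under 10000 counts, whose median was 20 libraries with a count, so many of these could not show the pattern. With counts in at least 7 of those 10 libraries there were 6 genes, *Bicdl2*, *Cbr3*, *Lyrm1*, *Slfn9* and *Wdr31* besides *Aqp5*. With at least 5 there were 27 genes (0.182%). The total counts were 1507719 to 2053255 in sham + v, 1435156 to 2019032 in OVX + v and 1702313 to 2081747 in OVX + RAL, against 1123053 to 1507667 in OVX + E2, and the part of depth in the zeros was not tested.

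Markers of glands, muscle and neutrophils varied widely between the same libraries. The summed level of 6 mucosal and gland genes had a median of 143 CPM (range 37.5 to 1738) in OVX + RAL, 85.5 CPM (0 to 338) in sham + v, 26.5 CPM (0 to 744) in OVX + v and 4.21 CPM (0 to 231) in OVX + E2. Of this list *Scgb1a1* and *Muc5b* had no count in any library, and *Bpifa1*, an airway and gland secretory gene, carried nearly all of it. *Bpifa1* had 3313 counts in library 19, 1468 in library 9, 679 in library 16 and 674 in library 1, where *Aqp5* had 39, 10, 10 and 0. Over the 8 libraries with an *Aqp5* count, the mucosal list summed to 0, 0 and 744 CPM in libraries 7 to 9 of OVX + v and to 349, 143, 143, 1738 and 37.5 CPM in libraries 16 to 20 of OVX + RAL. *Bpifa1* was lower in OVX + E2 than in OVX + RAL (log2 fold change -3.25, SE 0.444, adjusted p 8.1e-10 by edgeR), but this call was lost in 3 of 15 alternatives. Without library 19 the value was -1.74 with an adjusted p of 0.453, DESeq2 gave -3.25 with an adjusted p of 0.781, and edgeR after filterByExpr gave -3.25 with an adjusted p of 0.999886. Without library 11 the value was -6.52.

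The 6 skeletal muscle genes summed to a median of 95.1 CPM (0 to 227) in OVX + v, 81.1 CPM (0.480 to 396) in OVX + RAL, 8.02 CPM (0 to 83.6) in OVX + E2 and 3.15 CPM (0 to 104.7) in sham + v. By library, they summed to 227 CPM in library 6, 104.7 in library 1 and 83.6 in library 11, where *Aqp5* had 0 counts, and to 0.480 CPM in library 20, where it had 13. In the other libraries with an *Aqp5* count they summed to 40.8, 165 and 95.1 CPM (libraries 7 to 9) and to 396, 384, 81.1 and 36.2 CPM (libraries 16 to 19). The 6 neutrophil genes summed to a median of 21.5 CPM (0 to 203) in OVX + v, 17.8 CPM (0 to 62.8) in OVX + RAL, 5.93 CPM (0 to 141) in sham + v and 0 CPM (0 to 0.890) in OVX + E2. None of the muscle and neutrophil genes was at 0 in all 20 libraries. By edgeR 0 genes of both lists were called, whereas DESeq2 called 1 muscle gene in OVX + E2 against OVX + v and 1 in OVX + E2 against OVX + RAL. Unadjusted p under 0.05 by edgeR was found for 1, 6 and 2 of 6 neutrophil genes for sham + v, OVX + E2 and OVX + RAL against OVX + v, and 3 of 4 between the pellets. For muscle it was 1 of 6, 1 of 5, 1 of 6 and 2 of 6, beside 12.5%, 13.9%, 12.1% and 14.1% of all genes. The neutrophil genes passed the filter against OVX + E2 through the other group alone, so their p-values there are no support. The 5 melanocyte genes summed to a median of 950 CPM (524 to 1392) in OVX + v and 1328 CPM (715 to 1621) in OVX + RAL. Their median was 613 CPM (328 to 1145.5) in sham + v and 567 CPM (479 to 1122) in OVX + E2, with overlapping ranges. The part of the muscle, neutrophil, mucosal and melanocyte genes in the *Aqp5* counts was not tested.

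**Figure D4:**
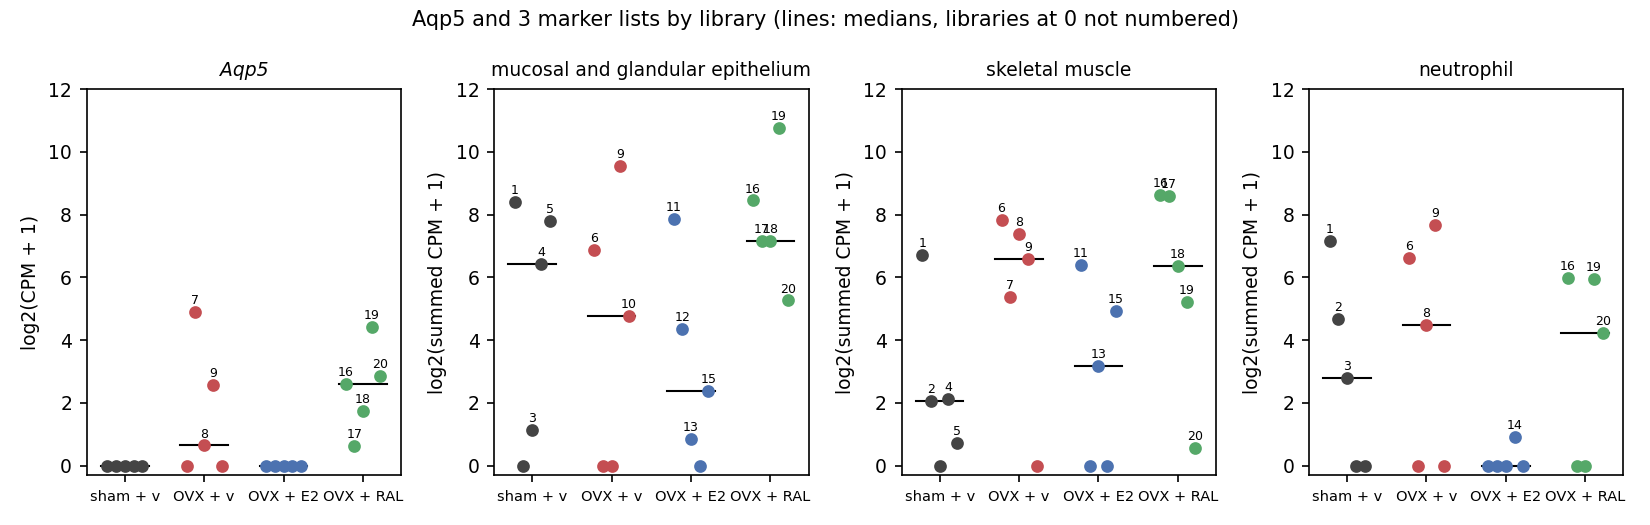
log2(CPM + 1) of *Aqp5* and log2(summed CPM + 1) of the mucosal and glandular, skeletal muscle and neutrophil marker lists in each library (numbered points) by group, with lines at the medians. *Aqp5* is at 0 in all sham + v and OVX + E2 libraries, and each list spans several log2 units within most groups.

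*Aqp4* (ENSMUSG00000024411, chromosome 18, 15522553 to 15544039 on GRCm39, minus strand) encodes the water channel of astrocyte endfeet and of supporting cells in sensory epithelia. Its counts were 1 in library 4 and 35 in library 5 of the sham + v group and 23 in library 7 of the OVX + v group, with 0 in the other libraries of both groups. They were 14, 0, 21, 0 and 36 in the OVX + E2 libraries 11 to 15 and 52, 12, 20, 4 and 0 in the OVX + RAL libraries 16 to 20. Counts were thus found in 3 of 5 OVX + E2 and 4 of 5 OVX + RAL libraries, against 1 of 5 OVX + v libraries, and all groups held a library at 0. The mean level was 10.3 ± 10.9 CPM (SD, n = 5) in OVX + E2, 9.41 ± 10.7 in OVX + RAL, 4.75 ± 10.3 in sham + v and 2.89 ± 6.45 in OVX + v.

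None of the comparisons of *Aqp4* passed the threshold. The log2 fold change against OVX + v by edgeR was 1.80 (SE 2.76) for OVX + E2, 1.68 (SE 2.57) for OVX + RAL and 0.71 (SE 2.91) for sham + v. Without library 7, the one OVX + v library with counts, these were 6.95, 7.10 and 6.08, fitted against a group at 0 and so no bounds. That for OVX + E2 was 1.16 without library 15, that for OVX + RAL was 0.80 without library 16, and that for sham + v became -3.81 without library 5. Between the pellets it was 0.13 (SE 2.46, 95% interval -4.69 to 4.94), and it was -0.52 without library 15, 1.01 without library 16 and -0.026 with TMM factors. The exact permutation test, two-sided, gave p = 0.286 for OVX + E2 and p = 0.167 for OVX + RAL against OVX + v. The gene as the deposited tables place it ends 102 bases from its 3′ end in GENCODE vM39.

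The genes listed as holding aquaporin 4 in the membrane or working beside it, the channel genes *Kcnj10* and *Trpv4* among the latter, were mostly measured more deeply than *Aqp4* itself. Of 14 such genes in the list, led by the utrophin gene *Utrn* (255 CPM over all libraries) and the dystroglycan gene *Dag1* (213 CPM), 0 were called in any comparison in either direction by edgeR or DESeq2, and 1, 1, 1 and 0 had an unadjusted p under 0.05. Over all genes tested by edgeR, 12.5%, 13.9%, 12.1% and 14.1% were under it, and 0.0145% to 0.0727% were called. The counts of higher and lower genes were 7 and 7 for sham + v, 9 and 5 for OVX + E2 and 4 and 10 for OVX + RAL, each against OVX + v, and 9 and 4 of 13 tested between the pellets. Their median log2 fold changes in the same order were -0.05, 0.27, -0.21 and 0.36, beside -0.02, -0.06, -0.03 and -0.01 over all genes tested. The gene with the lowest value in all 3 comparisons with OVX + v was *Sgcd*, a sarcoglycan of muscle, which had counts in 3 libraries only (39, 74 and 4 in OVX + v libraries 7, 9 and 10), with adjusted p-values of 0.351 to 0.402. *Kcnj10*, the potassium channel that sits beside aquaporin 4 in glia, was at 46.2 CPM over all libraries.

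Of the aquaglyceroporins, *Aqp7* had counts in 9 libraries, *Aqp3* in 1 and *Aqp9* in 0. *Aqp7* (chromosome 4, 41033074 to 41048139 on GRCm39, minus strand), the glycerol channel of fat cells, had 65 counts (43.1 CPM) in OVX + E2 library 11 and 44 counts (23.1 CPM) in OVX + RAL library 19. It had 1 or 2 counts in 7 other libraries and 0 in the remaining 11, so 55.1% of its counts lay in 1 library. The mean level was 9.09 ± 19.03 CPM (SD, n = 5) in OVX + E2 and 4.93 ± 10.2 in OVX + RAL, against 0.125 CPM in OVX + v and 0.202 CPM in sham + v, where no library passed 1 count. By edgeR the adjusted p was 0.562 for OVX + E2 and 0.821 for OVX + RAL against OVX + v. Between the pellets the log2 fold change was 0.87 (SE 2.71), and it was -2.93 without library 11.

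Fat markers did not follow these 2 libraries in one way. The summed level of 5 adipocyte genes was 37.8 CPM in library 19 and 0.663 CPM in library 11. Over the groups it ranged from 0 to 19.4 CPM in sham + v, 0 to 33.0 in OVX + v, 0 to 31.7 in OVX + E2 and 0.514 to 37.8 in OVX + RAL, and none of its genes was at 0 throughout. The counts of *Aqp7* are uncertain for another reason: of 338 windows of 63 nucleotides in the last 400 nucleotides of its transcript, 45 also occurred in transcripts of other genes, against 0 of 338 for each other member. Per the methods, reads were mapped in CLC Genomics Workbench at its default settings, and what these do with a read that matches several genes is not given in the sources used here.

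*Aqp3* (chromosome 4, 41092722 to 41098183 on GRCm39, minus strand), the glycerol and water channel of epidermis and of the basolateral side of collecting duct cells, had 22 counts (11.8 CPM) in OVX + RAL library 17 and none elsewhere. The mean of its group was 2.37 ± 5.30 CPM (SD, n = 5), at least 1.31-fold that of OVX + v and at least 1.04-fold that of OVX + E2, with these groups taken at 3 counts per library. Without library 17 no count was left in the group, and so no bound. The adjusted p by edgeR was 0.402 and 0.353 (unadjusted 0.0440 and 0.0471), and the exact permutation test gave p = 1 for both. *Aqp9* (chromosome 9, 71017941 to 71075964 on GRCm39, minus strand), the aquaglyceroporin of liver, had 0 of 33478857 counts over the 20 libraries, which allows a level of up to 0.0896 CPM.

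The genes of glycerol handling were measured around these sparse channels. Of 9 such genes, led by the monoglyceride lipase gene *Mgll* (240 CPM over all libraries) and *Gpd2* (232 CPM), 0 were called in any comparison by edgeR or DESeq2, and 0, 0, 0 and 2 had an unadjusted p under 0.05. The shares of all genes under it by edgeR were 12.5%, 13.9%, 12.1% and 14.1%, and 0.0145% to 0.0727% were called. Higher and lower genes numbered 2 and 7 for sham + v, 3 and 5 of 8 tested for OVX + E2, 7 and 2 for OVX + RAL, and 3 and 6 between the pellets. The medians were -0.39, -0.19, 0.29 and -0.33 on the log2 scale, beside -0.02, -0.06, -0.03 and -0.01 over all genes tested. The lowest fitted value was that of *Dgat2*, a triglyceride synthesis gene with counts in 4 libraries, between the pellets (adjusted p 0.353 by edgeR).

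The vasopressin route to aquaporin 2 was not detectable at its receptor. *Avpr2* (chromosome X, 72935708 to 72939108 on GRCm39, plus strand) had 0 counts in all 20 libraries, with the same limit of 0.0896 CPM as *Aqp9*. The other receptors *Avpr1a*, *Avpr1b* and *Oxtr* and the hormone genes *Avp* and *Oxt* also had 0 counts. *Avpr2* overlaps *L1cam* and *Arhgap4*, which are on the other strand and had 521 and 104 counts over the 20 libraries. Of these 6 hormone and receptor genes, none can be compared between groups.

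*Aqp2* itself (chromosome 15, 99476936 to 99482428 on GRCm39, plus strand) had 78 counts (54.7 CPM) in OVX + E2 library 15 and 1 count in OVX + v library 6, with 0 in the other 18 libraries. Of its counts 98.7% thus lay in 1 library. The mean of the OVX + E2 group was 10.9 ± 24.5 CPM (SD, n = 5), at least 6.89-fold that of OVX + RAL at 3 counts per library, with an adjusted p of 0.353 by edgeR (unadjusted 0.0234) and an exact permutation p of 1. Against OVX + v the adjusted p was 0.490. Without library 15 no count was left in the group. The tables place the 3′ end of *Aqp2* 2588 bases from that in GENCODE vM39, and both *Aqp2* and its neighbour *Aqp5* overlap *Gm34765* on the other strand in that annotation. The use of strand in counting is not given in the sources used here, so reads of *Gm34765*, not analysed here, cannot be told apart from those of either gene. The same doubt holds for *Aqp4*, which overlaps *Gm50048* on the other strand, and for *Aqp7*, which overlaps *Gm68796*. *Aqp9*, without a count, overlaps *Gm32511*, *Gm32714* and *Gm47268*. The 3′ end of *Aqp7* as deposited lay 239 bases from that in GENCODE vM39.

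Below the receptor, nearly all of the machinery was counted in each group. Of 20 genes of cAMP signalling, 20 had counts in sham + v, OVX + v and OVX + RAL and 19 in OVX + E2, where the cyclase gene *Adcy3* (18 counts in 3 libraries overall) was at 0. The list was led by *Gnas*, the stimulatory G protein gene (484 ± 134 CPM in sham + v, 510 ± 150 in OVX + v, 428 ± 115 in OVX + E2 and 579 ± 225 in OVX + RAL, SD, n = 5) and *Prkar1a*, a protein kinase A regulatory subunit gene (360 CPM over all libraries). Adenylyl cyclase 6 (*Adcy6*), the main cyclase of collecting duct cells, was at 54.5 CPM. The summed level per library was 1626 to 2065 CPM in sham + v, 1691 to 2198 in OVX + v, 1232 to 2621 in OVX + E2 and 1694 to 2013 in OVX + RAL. Of the 20 genes, 0 were called in any comparison by edgeR or DESeq2, and 0, 1, 0 and 0 had an unadjusted p under 0.05. Among all genes, edgeR gave 12.5%, 13.9%, 12.1% and 14.1% under it and called 0.0145% to 0.0727%. Higher and lower genes numbered 8 and 12, 7 and 13, and 9 and 11 for sham + v, OVX + E2 and OVX + RAL against OVX + v, with median log2 fold changes of -0.09, -0.31 and -0.01. Between the pellets 7 were higher and 12 lower in OVX + E2, with a median of -0.44. The medians of all genes tested, in the same order, were -0.02, -0.06, -0.03 and -0.01. The lowest fitted value was that of *Prkar1b*, another regulatory subunit gene with counts in 13 libraries, in OVX + E2 against OVX + v (adjusted p 0.358 by edgeR).

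The genes of aquaporin 2 vesicle traffic and turnover were likewise present. All 18 had counts, led by *Nedd4*, a ubiquitin ligase gene (538 CPM over all libraries), with *Ezr*, the ezrin gene, at 196 CPM and *Vamp8*, a vesicle fusion gene, at 139 CPM. Of the 18 genes, 0 were called by edgeR or DESeq2, and 1, 1, 0 and 0 had an unadjusted p under 0.05. By edgeR 12.5%, 13.9%, 12.1% and 14.1% of all genes were under it, and 0.0145% to 0.0727% were called. Higher and lower genes numbered 7 and 11, 6 and 12, and 7 and 11 against OVX + v, and 9 and 9 between the pellets. Medians on the log2 scale were -0.10, -0.21, -0.12 and -0.01, beside -0.02, -0.06, -0.03 and -0.01 over all genes tested. The gene with the lowest value for OVX + E2 against OVX + v was *Lrba*, a vesicle trafficking gene (-1.81, adjusted p 0.351 by edgeR, unadjusted 0.0190).

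Of the remaining mouse aquaporins, *Mip*, the lens aquaporin, had 81 counts (53.7 CPM) in OVX + E2 library 11 and 0 elsewhere, and its adjusted p by edgeR against OVX + v was 0.351. *Aqp6*, *Aqp8* and *Aqp12* had 0 counts in all libraries. Library 11 was thus the only one with counts of *Mip* and also the one with the most *Aqp7*, while the single high values of *Aqp2* and *Aqp3* were in libraries 15 and 17.

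Counts held by 1 library were common among genes as sparse as these. Of 2536 genes with at least 10 and under 100 counts over the 20 libraries, the class of *Aqp2* and *Aqp3*, the median number of libraries with a count was 2, the median share of the top library was 82.4%, and 1126 genes (44.4%) had at least 90% of their counts in 1 library. Of 6696 genes with at least 100 and under 1000 counts, the class of *Aqp4*, *Aqp5* and *Aqp7*, the median was 12 libraries and 24.2% in the top one. *Aqp7*, with 55.1%, and *Aqp5*, with 37.1% in library 7, were above that median, and *Aqp4*, with 23.9%, was near it. Of 5200 genes with at least 1000 and under 10000 counts, the class of *Aqp1* and *Aqp11*, the median was 20 libraries and 12.4%, beside 19.2% for *Aqp1* and 14.9% for *Aqp11*.

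**Figure D5:**
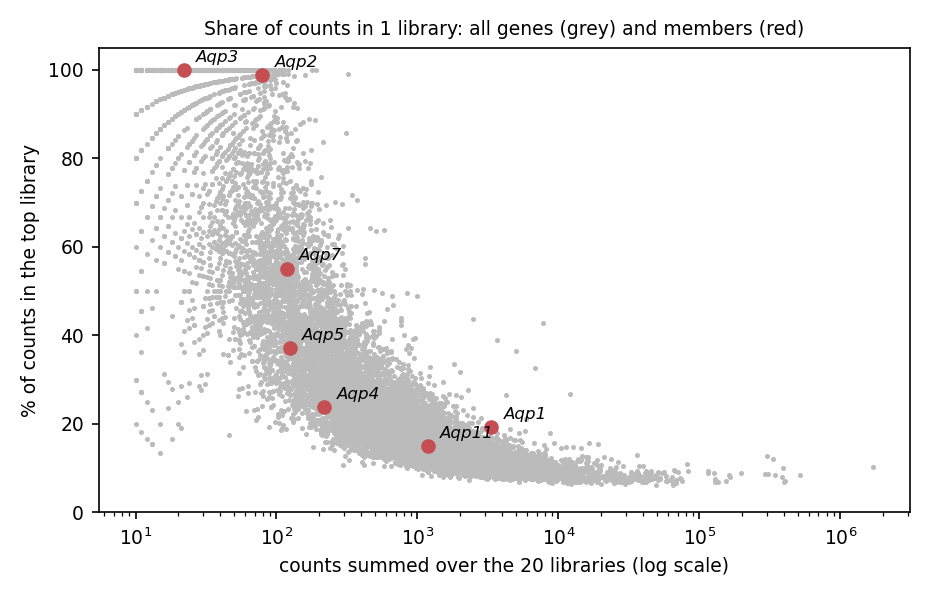
Percent of a gene's counts that lie in its top library against its counts summed over the 20 libraries (log scale), for all genes with at least 10 counts (grey) and the 7 members with counts (red). *Aqp2* and *Aqp3* lie at the top left with 98.7% and 100%, and *Aqp1* and *Aqp11* at the lower right with 19.2% and 14.9%.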

How the data were processed

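RNA of the mouse utricle was measured by 3′ mRNA sequencing in 20 libraries, and groups and library numbers were taken from the labels. As the methods describe, the authors trimmed the reads, mapped them to the GRCm39 genome at default settings and counted them per gene in CLC Genomics Workbench. The deposited total counts are raw counts of reads per gene. The authors' deposited CPM, TPM and RPKM and their comparisons (fold changes, p-values and FDR p-values) were not used. The tables hold 0 count columns outside the series, and the OVX + v counts are identical in all of them.

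CPM was computed from each library's total count (1123053 to 2081747). Genes with at least 10 counts over the fitted libraries were tested with edgeR 4.0.16 in R 4.3.3 (glmQLFit and glmQLFTest, total count as library size, Benjamini-Hochberg adjustment over all genes tested, threshold 0.05), each comparison in a fit of its 10 libraries, and any difference among groups in a fit of all 20. SE is the log2 fold change over the square root of F, and the 95% interval rests on it. Members were also compared by exact permutation of log2(CPM + 1) over groupings of 5 and 5 libraries. Scripts were tested on simulated data. Alternatives were TMM factors, DESeq2 1.42.0, no filter, filterByExpr, all 20 libraries in 1 fit and each library left out; those for *Bpifa1*, the *Aqp5* bounds and the list means were added after their values were seen. Of pairs of replicates, 0 had identical counts.

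The members and gene lists were chosen with earlier results of these data known. All members were to be named, as were the other aquaporins, the 3 genes most correlated with *Aqp1* and *Aqp11*, and the leading and extreme genes of each list. *Bpifa1* and the genes sharing the zeros of *Aqp5* were named after their values were seen, as were a few further list members given by level. Promoter windows are from RefSeq (GRCm38.p6), and shared sequence and overlaps from GENCODE vM39 on GRCm39.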

Additional observations from a re-analysis of the deposited data

Results flagged for a closer look

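The 7 members with counts gave 21 groups of 5 CPM values that were not all 0. In 11 of these 21 groups, 1 library stood apart from the other 4 (gap over range above 0.71). For normally distributed values this limit sets a library apart in about 1 in 20 groups, or 1.05 of 21. CPM values with many zeros are not so distributed, so 1.05 is no chance level for the 11. In groups that are mostly at 0 a single count is enough. Of 8 further groups, of total counts and of numbers of genes with a count, 0 had a library apart.

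*Aqp1* was at 231 CPM in sham + v library 3, with the other 4 between 0 and 44.6. *Aqp4* was at 23.2 CPM in sham + v library 5 and at 14.4 CPM in OVX + v library 7. *Aqp5* was at 28.9 CPM in OVX + v library 7, with the others between 0 and 4.95, and at 20.5 CPM in OVX + RAL library 19, with the others between 0.539 and 6.24. *Aqp7* was at 43.1 CPM in OVX + E2 library 11 and at 23.1 CPM in OVX + RAL library 19. *Aqp2* was at 54.7 CPM in OVX + E2 library 15 and *Aqp3* at 11.8 CPM in OVX + RAL library 17, with 0 in the rest of these groups. Single counts set apart *Aqp2* in OVX + v library 6 (0.623 CPM) and *Aqp7* in OVX + v library 7 (0.627 CPM). Libraries 7 and 19 were set apart for 3 and 2 genes.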

How the results depend on the processing

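No alternative called a member: for any difference among groups 160 of 160 adjusted p-values stayed above 0.05, and in comparisons of 2 groups 311 of 325 log2 fold changes kept their direction. The reversed ones were *Aqp4* in sham + v against OVX + v (range -3.81 to 6.08 over left-out libraries, -3.81 without sham + v library 5), *Aqp1* in OVX + RAL against OVX + v (-0.19 to 0.71, -0.19 without library 19), *Aqp5* in OVX + RAL against OVX + v (-0.93 to 2.27, and -0.0055 with TMM factors), *Aqp4* in OVX + E2 against OVX + RAL (-0.52 to 1.01, and -0.026 with TMM factors) and *Aqp7* in OVX + E2 against OVX + RAL (-2.93 to 4.28). The cause was not tested. Alternatives in which a member fell under the filter gave no value and are not among the 325, such as *Aqp2* without library 15 and *Aqp3* without library 17. Against a group at 0 the direction could not turn, so for such genes these counts are no measure of stability.

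Counts of genes called over the whole table moved more. For sham + v against OVX + v it was 2, and 1 with TMM factors or DESeq2, 0 with filterByExpr (which tests fewer genes) and 1 to 10 over left-out libraries (10 without library 1). For OVX + E2 against OVX + v it was 8, and 35 with DESeq2, 1 with filterByExpr and 6 to 17 over left-out libraries (17 without library 11). For OVX + RAL against OVX + v it was 4, and 0 with filterByExpr and 3 to 11 over left-out libraries (11 without library 16). For OVX + E2 against OVX + RAL it was 10, and 42 with DESeq2, 0 with filterByExpr, 16 with all 20 libraries in 1 fit and 8 to 16 over left-out libraries. For any difference among groups it was 21, and 2 with DESeq2, 1 with filterByExpr and 17 to 28 over left-out libraries. With DESeq2, 7 were higher and 28 lower in OVX + E2 than in OVX + v (2 and 6 by edgeR), 13 higher and 29 lower than in OVX + RAL (1 and 9), and 0 higher and 1 lower in sham + v than in OVX + v (2 and 0). TMM factors moved the median of all genes from -0.06 to -0.17 for OVX + E2 against OVX + v and from -0.01 to -0.16 for OVX + E2 against OVX + RAL. No paired analysis was possible because the groups share no replicate numbers. At this depth a gene under 1.44 to 2.67 CPM was below 3 counts.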
